A study of Mus musculus with 6 samples.

Results

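Imprinted genes are transcribed mainly from the copy inherited from the mother or mainly from the copy inherited from the father. The choice is set by DNA methylation laid down in the egg or the sperm and kept through later cell divisions, and most of the genes lie in clusters that share a control region and often a long noncoding RNA. Many of them act on fetal and placental growth, and in adult tissues a large share is turned down while some stay in use in stroma, muscle precursors and endocrine cells. A list of 35 imprinted mouse genes was taken by symbol from the gene rows, and 33 of the 35 had a row among the 32110 genes of each library. Phlda2 and Magel2 had no row and were not analysed here. The list has 18 genes with a row that are paternally expressed, 14 that are maternally expressed and Gnas, which has transcripts of either kind. These assignments are background knowledge of the mouse, since the values sum both copies of a gene and no allele was read.

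RNA-seq was made from 3 residual CT26 tumors taken 3 days after incomplete radiofrequency ablation (iRFA), a heating of the tumor that kills only part of it, and from 3 untreated CT26 tumors without a time label. CT26 is a colon carcinoma line of BALB/c mice. In both groups it had been injected intradermally into the right flank of male wild-type BALB/c mice, and treatment began at a longest diameter of about 0.8 cm. The labels number the libraries within a group and do not say which came from separate animals, so p-values measure the spread between these libraries. The comparison asks how transcription in the residual tumor differs from that in the untreated tumor, and the unit is FPKM, in which the fragments of a gene are divided by its length and by the total of mapped fragments.

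The library labelled untreated replicate 3 was more like the iRFA libraries than like the other untreated libraries. Across the 15560 genes tested, its log2(FPKM + 1) correlated with the iRFA libraries at Pearson's r of 0.983 to 0.987 and with untreated replicates 1 and 2 at 0.807 and 0.801, in values that share gene length and base composition. Files listed 24093 to 24734 genes above 0 in the iRFA libraries, against 25765, 25826 and 24084 in untreated replicates 1, 2 and 3. The FPKM of the 6 mesothelial markers summed to between 1.05 and 1.21 in the iRFA libraries, against 623, 574 and 1.71 in untreated replicates 1, 2 and 3, with Upk3b, Wt1 and Krt19 listed at 0 in untreated replicate 3. For the 8 fibroblast markers the sum was 493 to 791 after iRFA, against 3265, 3807 and 549 in the untreated libraries. These markers did not all move alike, with a log2 fold change below 0 in 7 and above 0 in 1, Pdgfra. Pdgfra had 21.02 to 22.2 FPKM after iRFA, against 13.9, 16.5 and 21.4 FPKM in untreated replicates 1, 2 and 3. Dcn differed little, at 61.5 to 96.3 FPKM after iRFA, against 85.5 to 91.2 FPKM without treatment. The 6 macrophage markers summed to 2940 to 3306 after iRFA, against 1328, 1317 and 2668 without treatment. Of the 8 colon epithelium markers, 7 stayed under 1 FPKM in the iRFA libraries and untreated replicate 3. Krt8 and Krt18 reached 247 and 194 FPKM in untreated replicate 1, and Cdx2 did not exceed 0.0231 FPKM anywhere. Of the 6 tested, 5 had a log2 fold change below 0 and 1, Cdh1, above 0. Cdh1 had at least 1.74 FPKM in each iRFA library, against 1.66, 3.42 and 1.26 FPKM in untreated replicates 1, 2 and 3. The part of these cell types in the results below was not tested, and in bulk RNA fewer cells of a type and less RNA per cell cannot be told apart. Whether the untreated libraries are what their labels say was not settled by these values, and every untreated mean below pools unlike libraries. The counts and the main fold changes are therefore given with all 6 libraries, without untreated replicate 3, and without untreated replicates 1 and 2. Untreated replicate 3 was left out because of its values, so the p-values of that fit are descriptive and not a valid test of iRFA.

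Genes averaging at least 0.5 FPKM over the 6 libraries were tested with limma on log2(FPKM + 1), a scale on which the change of low genes is understated, with Benjamini-Hochberg adjustment over all 15560 genes and a threshold of 0.05. With 3 libraries against 3, an exact two-sided permutation test cannot go below p = 0.1. The filter let 24 of the 33 imprinted genes through. Of these 24, 7 averaged under 0.5 FPKM after iRFA and passed through the untreated libraries alone, and 1 (Kcnq1) passed through the iRFA libraries alone, so counts over the 24 describe the tested genes and not the whole list. The 9 genes under the filter were Dlk1, Mirg, Usp29, Zim1, Peg10, Ascl2, Snrpn, Nap1l5 and Zdbf2.

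With all 6 libraries limma called 0 of the 24 imprinted genes, and 0 of all genes tested (0%). At an unadjusted p under 0.05 there were 5 imprinted genes, with H19 higher after iRFA and Meg3, Rian, Slc22a18 and Impact lower, beside 1236 higher and 1050 lower among all genes. The groups did not overlap in 2 imprinted genes that were higher after iRFA, H19 and Igf2, where the share over all genes tested was 11.4%. Igf2 overlapped once the libraries were rescaled to equal sums or by median-of-ratios, and under the second scaling Mcts2 did not overlap. They did not overlap in 3 that were lower, Slc22a18, Kcnq1ot1 and Impact, where that share was 10.5%. The log2 fold change was above 0 in 7 genes and below 0 in 17, with a median of -0.28 beside 0.02 over all genes tested. The 17 include the 7 genes that passed the filter through the untreated libraries alone, which favored their lower sign. With no filter, 9 of the 33 genes were above 0 and 24 below, with a median of -0.095 beside -0.013 over all genes. Without untreated replicate 3, limma called 5 imprinted genes higher after iRFA (H19, Mest, Grb10, Gnas and Mcts2), against 33.9% of all genes, and 14 of the 24 lower, against 30.3% of all genes. The 14 hold all 7 genes that passed the filter through the untreated libraries alone, so this count is partly set by the filter. Without untreated replicates 1 and 2, a fit in which the spread of the lone untreated library is set by the iRFA libraries, 0 imprinted genes and 1 gene in all (0.00643%) were called, and the median of the 24 was 0.03. The log2 fold change of most imprinted genes thus depended on which untreated libraries were in the fit. Most lay near 0 without untreated replicates 1 and 2.

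**Figure D1:**
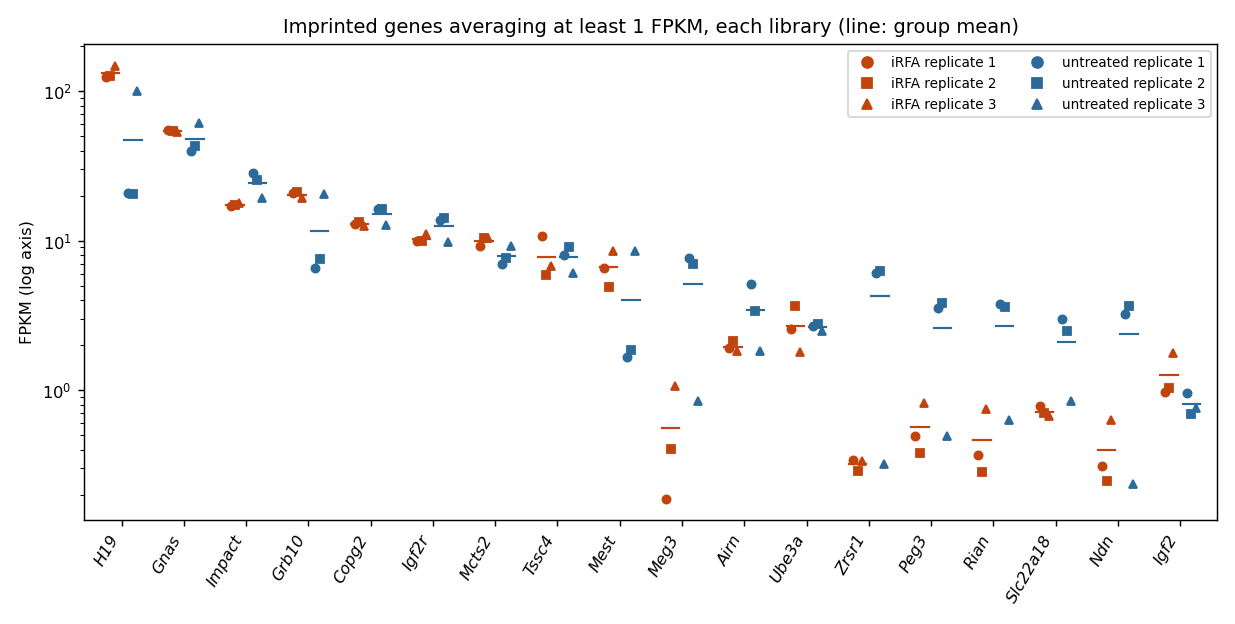
FPKM (log axis) of the 18 imprinted genes that averaged at least 1 FPKM, in order of mean level, with iRFA libraries in orange to the left of untreated libraries in blue, 1 symbol a library and a line at each group's mean. For Zrsr1 the untreated libraries lie at 6.11, 6.29 and 0.319 FPKM, with the triangle of untreated replicate 3 level with the 3 iRFA libraries, and the same split of the blue symbols recurs for Mest, Grb10, Meg3, Peg3, Rian and Ndn.

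H19, a maternally expressed long noncoding RNA of fetal tissues (chr7:142575529-142578143 on GRCm38, minus strand), had the highest mean FPKM of the 33 genes. It stood at 125, 125 and 148 FPKM in iRFA replicates 1, 2 and 3, against 20.8, 20.5 and 100.1 FPKM in untreated replicates 1, 2 and 3. All iRFA libraries lay above all untreated libraries, but untreated replicate 3 was close below them and the other untreated libraries far below. The iRFA mean was 133 ± 13.2 FPKM and the untreated mean 47.1 ± 45.9 FPKM (SD, n = 3 each), a log2 fold change of 1.88 (SE 0.63, adjusted p = 0.250 from limma). It was 2.62 (SE 0.09, adjusted p = 1.34e-05 from limma) without untreated replicate 3 and 0.40 (SE 0.13, adjusted p = 0.727) without untreated replicates 1 and 2.

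Igf2, the paternally expressed growth factor next to H19, was far lower. It had 0.973, 1.04 and 1.77 FPKM in iRFA replicates 1, 2 and 3, against 0.960, 0.691 and 0.757 FPKM in the untreated replicates. The groups were separated by the small gap between 0.973 and 0.960 FPKM, and the log2 fold change was 0.31 (SE 0.18, adjusted p = 0.279 from limma), 0.29 without untreated replicate 3 and 0.35 without untreated replicates 1 and 2. It passed the threshold in none of these fits, and the estimate was 0.16 without iRFA replicate 3, 0.55 with a pseudocount of 0.1 and 0.53 after quantile normalization. The ratio of H19 to Igf2 FPKM was 128, 121 and 83.6 in the iRFA libraries, against 21.6, 29.7 and 132 in the untreated libraries.

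H19 carries the hairpin of miR-675, and Mest, the paternally expressed gene of a hydrolase-like protein, carries that of miR-335. The mature miRNAs were not measured in these libraries, and their RefSeq sequences (GRCm38.p6) are shown because both host genes were called higher after iRFA without untreated replicate 3. Capitals mark the seed, bases 2 to 8, and no seed is shared among them.
miR-675-5p: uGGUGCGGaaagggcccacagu
miR-675-3p: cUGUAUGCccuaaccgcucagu
miR-335-5p: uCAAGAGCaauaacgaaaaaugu
miR-335-3p: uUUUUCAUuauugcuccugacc

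Mest (chr6:30723547-30748465, plus strand) had 6.54, 4.89 and 8.58 FPKM in the iRFA libraries, against 1.67, 1.85 and 8.503 FPKM in untreated replicates 1, 2 and 3. Untreated replicate 3 fell between iRFA replicates 1 and 3, so the groups overlapped. The log2 fold change was 0.85 (SE 0.53, adjusted p = 0.301 from limma), 1.45 (SE 0.21, adjusted p = 0.0018) without untreated replicate 3, and -0.34 (SE 0.30, adjusted p = 0.831) without untreated replicates 1 and 2. Copg2, a coat protein subunit whose end overlaps that of Mest on the other strand by 912 bases, ran the other way with 12.99, 13.3 and 12.6 FPKM after iRFA, against 16.3, 16.3 and 12.8 FPKM. Its log2 fold change was -0.20 (SE 0.12) in all libraries and -0.31 (SE 0.05, adjusted p = 0.00417 from limma) without untreated replicate 3, and 0.02 (SE 0.07) without untreated replicates 1 and 2.

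Grb10, an adaptor that restrains insulin and IGF receptor signals (chr11:11930508-12038683, minus strand), had 20.7, 21.04 and 19.3 FPKM in the iRFA libraries, against 6.55, 7.48 and 20.6 FPKM in the untreated libraries. Untreated replicate 3 lay inside the iRFA range and replicates 1 and 2 below it. The iRFA mean was 20.3 ± 0.934 FPKM and the untreated mean 11.6 ± 7.87 FPKM (SD, n = 3 each), with a log2 fold change of 0.93 (SE 0.41, adjusted p = 0.250 from limma). It was 1.41 (SE 0.08, adjusted p = 5.92e-05 from limma) without untreated replicate 3 and -0.02 (SE 0.08) without untreated replicates 1 and 2. Gnas, the stimulatory G protein alpha subunit, had 55.1, 54.0 and 53.5 FPKM after iRFA, against 39.6, 43.1 and 61.4 FPKM. Here untreated replicate 3 was above every iRFA library and replicates 1 and 2 below, and the log2 fold change of 0.20 (SE 0.18) became 0.38 (SE 0.06, adjusted p = 0.00218 from limma) without untreated replicate 3 and -0.18 (SE 0.06) without untreated replicates 1 and 2. Nespas, a noncoding RNA antisense to part of Gnas, was low in all libraries but split the other way. It had 0.394 and 0.425 FPKM in untreated replicates 1 and 2, against 0.012 to 0.049 FPKM in the iRFA libraries and untreated replicate 3.

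Igf2r, the receptor that clears IGF2 and sorts lysosomal enzymes (chr17:12682406-12769664, minus strand), had 9.88, 9.95 and 11.1 FPKM after iRFA, against 13.7, 14.2 and 9.84 FPKM without treatment. Airn, the long RNA that crosses Igf2r on the other strand over 28354 bases and silences it on the paternal copy, had 1.90, 2.12 and 1.82 FPKM after iRFA, against 5.09, 3.39 and 1.83 FPKM. For both genes replicates 1 and 2 of the untreated group were the highest libraries. Igf2r gave a log2 fold change of -0.25 (SE 0.16, adjusted p = 0.306 from limma) and Airn of -0.52 (SE 0.29, adjusted p = 0.267). Without untreated replicate 3 both were called lower, at -0.41 (adjusted p = 0.0044) and -0.81 (adjusted p = 0.00554), and without untreated replicates 1 and 2 both stood at 0.06. The strand setting of the libraries is not given in the sources used here, so reads of Airn and of unspliced Igf2r cannot be told apart where the genes cross.

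The noncoding RNAs of the Dlk1-Meg3 cluster on chromosome 12 moved alike among the libraries. Meg3, the maternally expressed RNA at the head of the cluster (chr12:109541001-109571726), had 0.188, 0.403 and 1.07 FPKM in the iRFA libraries, against 7.62, 6.95 and 0.847 FPKM in the untreated libraries. Rian, which carries small nucleolar RNAs, had 0.368, 0.284 and 0.743 FPKM after iRFA, against 3.79, 3.59 and 0.629 FPKM. Mirg, the host of 14 annotated miRNA hairpins here, was under the filter, at 0.0323 to 0.0716 FPKM after iRFA and 0.120 to 0.367 FPKM without treatment. In Meg3 and Rian untreated replicate 3 fell inside the iRFA range, and in Mirg it lay just above that range. Among all tested imprinted genes Meg3 had the lowest estimate, a log2 fold change of -1.73 (SE 0.64, adjusted p = 0.250 from limma), followed by Zrsr1, and Rian had -1.18 (SE 0.45, adjusted p = 0.250). Without untreated replicate 3 they were called lower, at -2.45 (adjusted p = 0.000423) and -1.69 (adjusted p = 0.000294), and without untreated replicates 1 and 2 they stood at -0.29 (SE 0.35) and -0.17 (SE 0.20). Dlk1, the paternally expressed membrane protein of this cluster and a mark of fetal progenitors, did not follow them. It had 0.116 to 0.167 FPKM after iRFA, against 0.0604, 0.0503 and 0.508 FPKM without treatment, highest in untreated replicate 3.

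Peg3 on proximal chromosome 7, a zinc finger protein expressed from the paternal copy, had 0.496, 0.379 and 0.820 FPKM after iRFA, against 3.56, 3.80 and 0.490 FPKM. Its log2 fold change was -1.04 (SE 0.48, adjusted p = 0.250 from limma), -1.59 (SE 0.14, adjusted p = 0.000269) without untreated replicate 3 and 0.06 (SE 0.18) without untreated replicates 1 and 2. Its maternally expressed neighbour Zim1, also a zinc finger gene, was at 0.0320 to 0.0516 FPKM after iRFA, against 0.615, 0.579 and 0.00656 FPKM, under the filter. Usp29, whose annotated start lies beside that of Peg3 on the other strand, stayed at or under 0.0126 FPKM in every library. The split of the untreated libraries thus appeared in a paternally and in a maternally expressed gene of the same cluster.

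Paternally expressed Ndn, which encodes necdin of the MAGE family in the Snrpn-Ube3a cluster, had 0.308, 0.248 and 0.636 FPKM after iRFA, against 3.22, 3.65 and 0.237 FPKM. Its log2 fold change of -1.06 (SE 0.53, adjusted p = 0.253 from limma) was -1.67 (SE 0.14, adjusted p = 0.000259) without untreated replicate 3 and 0.17 (SE 0.18) without untreated replicates 1 and 2. Snrpn, a splicing protein gene, was under the filter with 0.0480 to 0.261 FPKM after iRFA and 0.0491 to 0.336 FPKM without treatment. Ube3a, a ubiquitin ligase that is imprinted chiefly in neurons, had 2.57, 3.68 and 1.81 FPKM after iRFA, against 2.70, 2.75 and 2.49 FPKM. The untreated libraries, replicate 3 included, sat within the iRFA range for Ube3a, whose log2 fold change was -0.01 (SE 0.20, adjusted p = 0.963 from limma).

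In the Kcnq1 cluster on distal chromosome 7, Cdkn1c, Slc22a18 and Kcnq1ot1 were all highest in untreated replicates 1 and 2. Cdkn1c, the maternally expressed cell cycle inhibitor p57, had 0.368 to 0.416 FPKM after iRFA and 0.305 to 1.95 FPKM without treatment. Slc22a18, a transporter of the organic cation family, had 0.785, 0.702 and 0.668 FPKM after iRFA, against 3.00, 2.47 and 0.842 FPKM, so that all untreated libraries were higher. Kcnq1ot1, the paternally expressed antisense RNA that silences the cluster and lies wholly within Kcnq1, had 0.277 to 0.289 FPKM after iRFA and 0.417 to 1.203 FPKM without treatment, also without overlap. The log2 fold changes were -0.65 (SE 0.33, adjusted p = 0.255 from limma) for Cdkn1c, -0.78 (SE 0.31, adjusted p = 0.250) for Slc22a18 and -0.48 (SE 0.20, adjusted p = 0.250) for Kcnq1ot1. Without untreated replicate 3 all of them were called lower, at -1.02, -1.12 and -0.65, and without untreated replicates 1 and 2 they were at 0.10, -0.10 and -0.14. Kcnq1, the potassium channel gene, ran the other way, with 0.509 to 0.803 FPKM after iRFA and 0.250 to 0.661 FPKM without treatment. Tssc4 had 10.7, 5.92 and 6.72 FPKM after iRFA, against 8.05, 9.09 and 6.03 FPKM, and Ascl2, a transcription factor of trophoblast and intestinal stem cells, was under the filter at 0.0969 to 0.471 FPKM after iRFA and 0.0351 to 0.302 FPKM without treatment. Cdkn1c and Kcnq1ot1, which are expressed from opposite parental copies, were thus high in the same libraries.

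**Figure D2:**
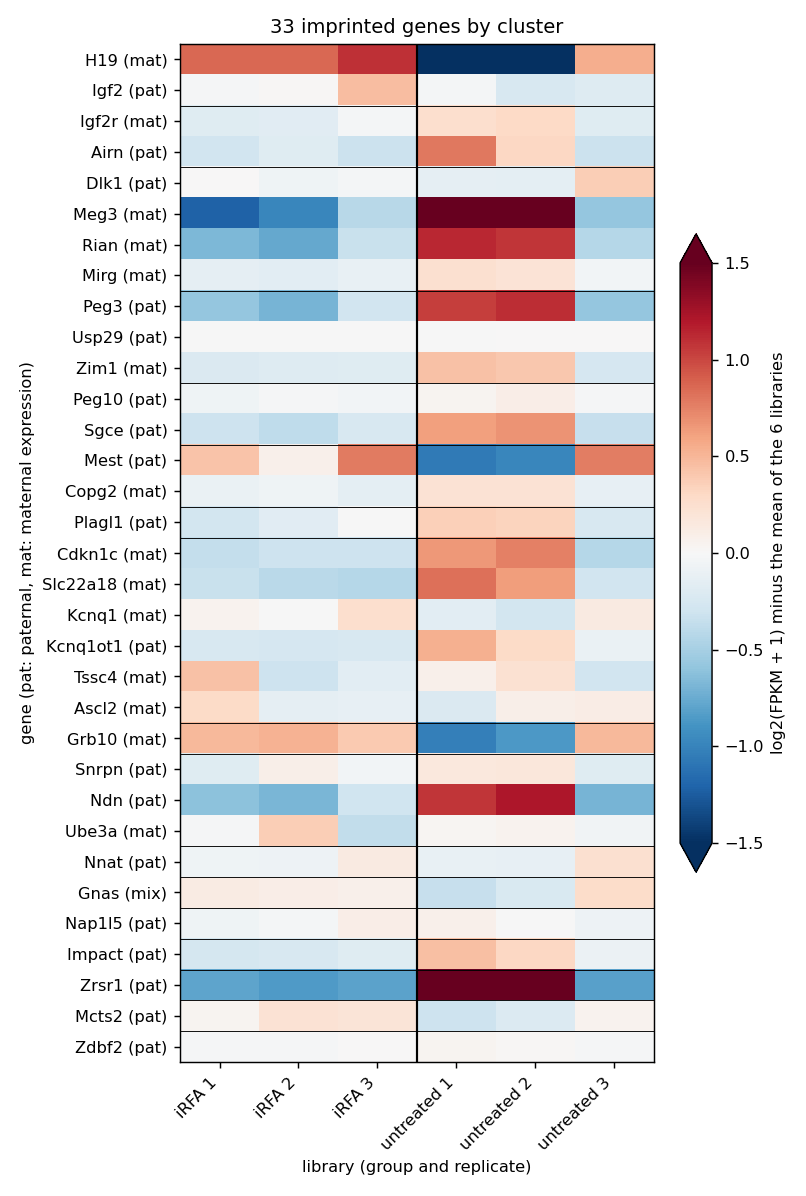
log2(FPKM + 1) of the 33 imprinted genes (down the page, by cluster, with the parental copy in brackets and mix for Gnas) in the 6 libraries (across), minus the gene's mean over the libraries, red above and blue below, with differences past 1.5 drawn in the end color. Untreated replicates 1 and 2 stand apart from the other 4 columns, which include untreated replicate 3, and clusters such as Kcnq1 hold red and blue cells for genes of the same parental copy.

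In Zrsr1, untreated replicates 1 and 2 stood far above the other 4 libraries. This paternally expressed retrogene of a splicing factor of the U2AF family (chr11:22972005-22976496, plus strand) lies inside Commd1 on the other strand. It had 0.340, 0.289 and 0.337 FPKM in the iRFA libraries, against 6.11, 6.29 and 0.319 FPKM in untreated replicates 1, 2 and 3. The log2 fold change was -1.63 (SE 0.69, adjusted p = 0.250 from limma), -2.45 (SE 0.08, adjusted p = 1.03e-05) without untreated replicate 3 and 0.00 (SE 0.07) without untreated replicates 1 and 2. Its host Commd1 had 7.47, 8.36 and 7.06 FPKM after iRFA, against 4.48, 4.72 and 7.82 FPKM, so the ratio of Zrsr1 to Commd1 was 0.0455, 0.0345 and 0.0477 in the iRFA libraries, against 1.36, 1.33 and 0.0408 in the untreated libraries. A further annotated gene across Zrsr1, Gm28048, was listed at 11.1 FPKM in iRFA replicate 3 and at no more than 0.0191 FPKM in any other library, and the sharing of fragments between genes of this locus was not tested.

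Kcnq1ot1, inside Kcnq1, also had a split ratio to its host. That ratio was 0.5099, 0.5453 and 0.35 after iRFA, against 3.39, 3.38 and 0.6315 in untreated replicates 1, 2 and 3. The imprinted genes inside H13, Blcap and Herc3 varied less than Zrsr1. Mcts2, a retrogene copy of Mcts1 within H13 on the same strand, had 9.16, 10.5 and 10.3 FPKM after iRFA, against 6.99, 7.60 and 9.25 FPKM, with a log2 fold change of 0.30 (SE 0.13, adjusted p = 0.250 from limma). Leaving out untreated replicate 3 brought it to 0.41 (SE 0.08, adjusted p = 0.00719), and leaving out untreated replicates 1 and 2 to 0.10 (SE 0.11). Its ratio to H13 was 0.600, 0.750 and 0.573 after iRFA, against 0.431, 0.452 and 0.522. Nnat, a small membrane protein gene within Blcap, had 0.630 to 0.884 FPKM after iRFA and 0.583 to 1.03 FPKM without treatment. Nap1l5, within Herc3, was under the filter at 0.0562 to 0.184 FPKM after iRFA and 0.0431 to 0.162 FPKM without treatment. Retrogenes such as Mcts2 and Zrsr1 have close relatives elsewhere, so their values are uncertain where reads match both.

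**Figure D3:**
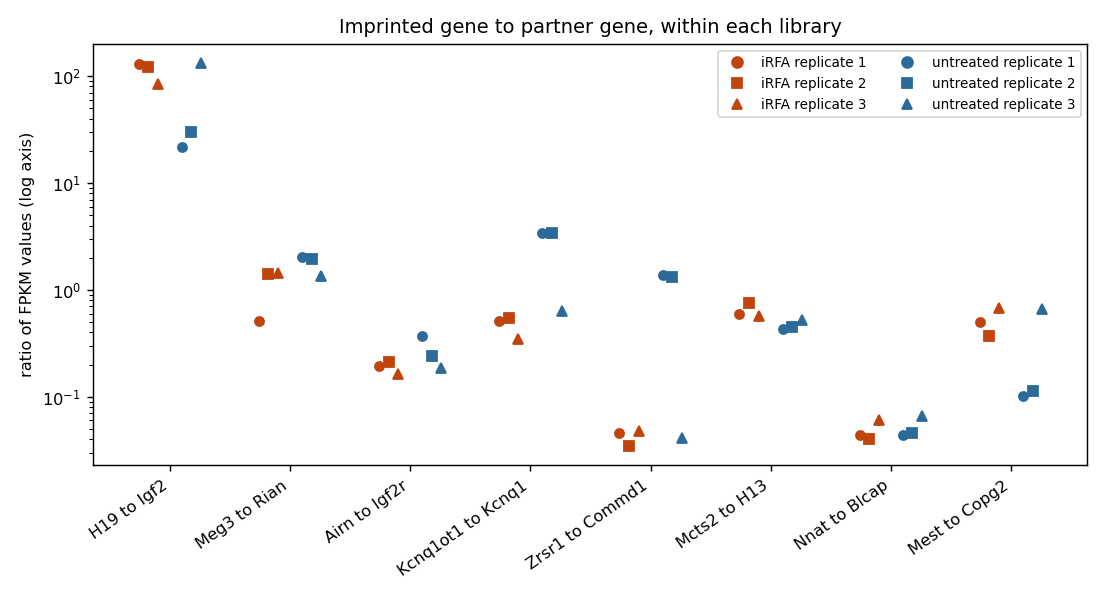
Ratio of the FPKM of an imprinted gene to that of a neighbour or host gene within the same library (log axis), with iRFA libraries in orange to the left of untreated libraries in blue. The ratio of Zrsr1 to Commd1 is 1.36 and 1.33 in untreated replicates 1 and 2 and under 0.05 in the other 4 libraries. That of Kcnq1ot1 to Kcnq1 is also highest in untreated replicates 1 and 2, at 3.39 and 3.38, whereas the ratios of Mcts2 to H13 and Nnat to Blcap lie close together.

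Impact, a cytosolic inhibitor of the amino acid sensor kinase GCN2, had 16.9, 17.2 and 17.9 FPKM after iRFA, against 28.3, 25.5 and 19.2 FPKM, with all untreated libraries higher. Its log2 fold change was -0.45 (SE 0.16, adjusted p = 0.250 from limma), -0.60 (SE 0.07, adjusted p = 0.000649) without untreated replicate 3 and -0.14 (SE 0.07) without untreated replicates 1 and 2. Sgce, the epsilon-sarcoglycan gene, had 0.142 to 0.259 FPKM after iRFA and 0.170 to 1.37 FPKM without treatment, and Plagl1, a zinc finger transcription factor, had 0.247 to 0.509 FPKM after iRFA and 0.285 to 0.936 FPKM without treatment. Peg10, a retrotransposon-derived gene of the placenta that starts next to Sgce, was under the filter at 0.0466 to 0.0747 FPKM after iRFA and 0.0755 to 0.171 FPKM without treatment. Zdbf2 did not exceed 0.0427 FPKM. Sgce and Plagl1 were called lower without untreated replicate 3, at -0.96 and -0.50, and stood at 0.03 and 0.09 without untreated replicates 1 and 2.

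**Figure D4:**
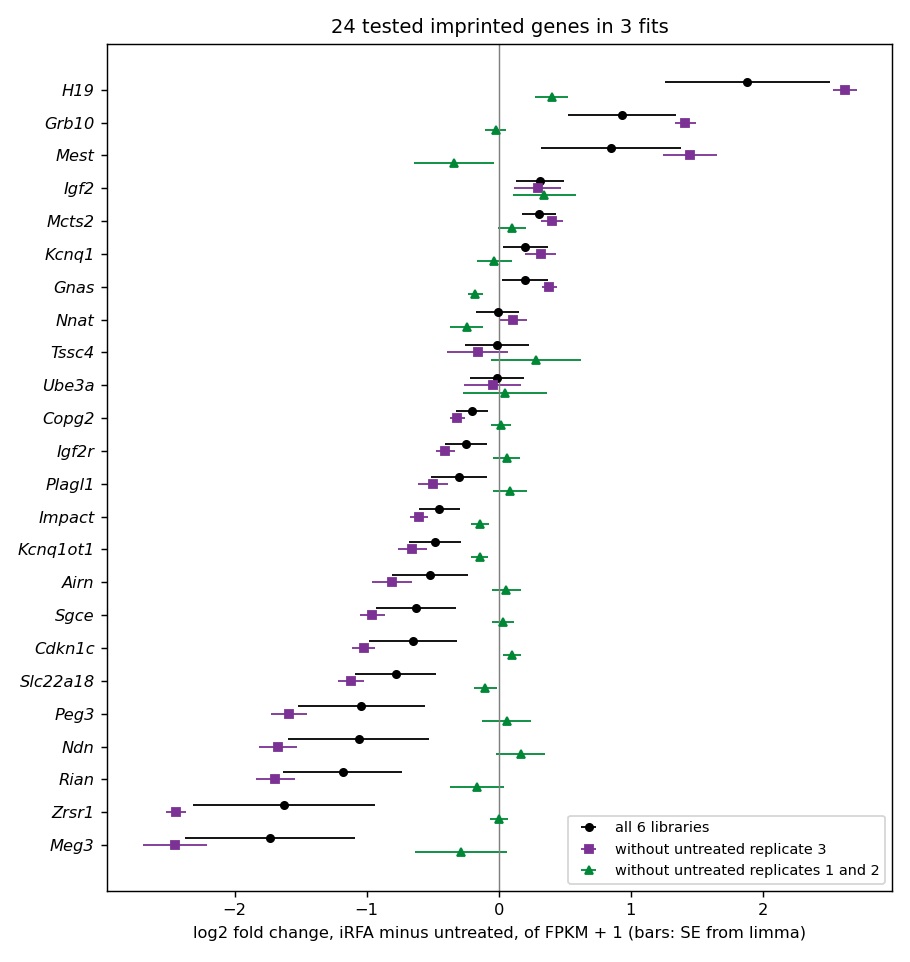
log2 fold change of FPKM + 1, iRFA minus untreated, with the SE from limma, for the 24 tested imprinted genes in 3 fits: all 6 libraries (black circles), without untreated replicate 3 (purple squares) and without untreated replicates 1 and 2 (green triangles). Zrsr1 lies at -1.63, -2.45 and 0.00 in these fits, Igf2 between 0.29 and 0.35, and 15 of the 24 genes change sign between the black and the green symbols.

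Both parental classes held genes of either sign. Of the 12 tested paternally expressed genes, 3 had a log2 fold change above 0 and 9 below, with a median of -0.47, and of the 11 tested maternally expressed genes 3 were above and 8 below, with a median of -0.20. Without untreated replicate 3, 2 paternally expressed genes were called higher and 8 lower, and 2 maternally expressed genes were called higher and 6 lower, where 33.9% of all genes tested were called higher and 30.3% lower. Paternally expressed Sgce, Plagl1, Kcnq1ot1, Ndn and Zrsr1 and maternally expressed Rian and Cdkn1c passed the filter through the untreated libraries alone. The filter favored their lower sign, so these counts and medians do not compare the classes. Without untreated replicates 1 and 2 the medians were 0.05 for the paternally and 0.02 for the maternally expressed genes. The library labelled untreated replicate 3 was nearer to an iRFA library than to untreated replicates 1 and 2 in 23 of the 24 tested imprinted genes, where the share over all genes tested was 86.5%.

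Promoter windows from RefSeq (GRCm38.p6, 250 bases before to 50 after the annotated start) were found for 29 of the listed genes and searched on both strands for TGCCGC, the hexamer bound by ZFP57, a protein that keeps methylation at imprinted control regions. With the window of most CpG taken for each gene, 10 of the 29 (34.48%) held a match, against 12.2% of the 27025 genes with a window. The median number of CpG was 17 in these 29 windows and 8 over all genes. The hexamer itself holds a CpG, so these shares do not compare windows of like CpG content. Windows of Zrsr1, Meg3, Grb10 and Mest are shown as examples of genes that were high or low in untreated replicates 1 and 2, a choice made after their values were seen. Capitals mark the hexamer or its complement GCGGCA, of which Mest had 2 matches, Grb10 and Meg3 had 1 and Zrsr1 had none.
Mest, chr6:30737800-30738099, plus strand: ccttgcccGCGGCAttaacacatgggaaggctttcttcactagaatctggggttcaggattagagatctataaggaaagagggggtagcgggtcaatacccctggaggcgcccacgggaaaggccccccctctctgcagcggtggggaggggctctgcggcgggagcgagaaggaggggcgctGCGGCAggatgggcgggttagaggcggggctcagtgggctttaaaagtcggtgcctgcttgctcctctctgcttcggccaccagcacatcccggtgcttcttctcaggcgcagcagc
Grb10, chr11:12037371-12037670, minus strand: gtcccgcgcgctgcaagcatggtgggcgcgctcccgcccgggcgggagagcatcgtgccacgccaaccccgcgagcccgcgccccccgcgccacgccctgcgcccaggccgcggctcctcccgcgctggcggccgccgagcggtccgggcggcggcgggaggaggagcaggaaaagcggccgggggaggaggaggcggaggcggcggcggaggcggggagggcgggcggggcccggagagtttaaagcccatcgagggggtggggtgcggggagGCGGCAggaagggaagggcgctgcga
Meg3, chr12:109540746-109541045, plus strand: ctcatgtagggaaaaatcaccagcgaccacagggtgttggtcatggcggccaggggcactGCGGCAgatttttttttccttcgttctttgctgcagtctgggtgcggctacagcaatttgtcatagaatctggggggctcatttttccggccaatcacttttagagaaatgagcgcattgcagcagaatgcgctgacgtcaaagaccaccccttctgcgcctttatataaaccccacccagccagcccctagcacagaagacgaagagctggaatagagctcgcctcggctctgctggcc
Zrsr1, chr11:22971755-22972054, plus strand: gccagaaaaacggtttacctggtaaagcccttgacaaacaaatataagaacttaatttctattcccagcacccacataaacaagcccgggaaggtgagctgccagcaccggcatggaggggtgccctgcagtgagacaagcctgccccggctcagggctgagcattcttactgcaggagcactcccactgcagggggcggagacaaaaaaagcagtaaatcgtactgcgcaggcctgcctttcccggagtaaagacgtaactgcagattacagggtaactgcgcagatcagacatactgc
These matches are letters in a window and say nothing of binding, and methylation was not measured.

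Of 42 further imprinted or neighbouring genes, 26 were tested, with 13 above 0 and 13 below and a median log2 fold change of 0.00. Limma called 0 of them with all libraries, and 9 higher and 9 lower without untreated replicate 3, where the shares over all genes were 33.9% and 30.3%. The median was -0.03 without untreated replicates 1 and 2. Cd81, a membrane tetraspanin near the Kcnq1 cluster, had 85.9, 91.0 and 87.2 FPKM after iRFA, against 166, 163 and 90.9 FPKM without treatment. Nap1l4, a histone chaperone, had 44.5, 43.9 and 40.7 FPKM after iRFA, against 32.8, 39.7 and 40.7 FPKM. Ago2, the small RNA effector, had 19.1, 21.03 and 19.1 FPKM after iRFA, against 12.5, 12.3 and 22.0 FPKM. Decorin (Dcn), also a fibroblast marker and imprinted in the mouse placenta, had 74.7, 61.5 and 96.3 FPKM after iRFA, against 91.2, 88.9 and 85.5 FPKM. Tnfrsf23 alone among the 26 did not overlap, and was lower after iRFA at 3.59 to 4.16 FPKM, against 4.71 to 7.96 FPKM, where 10.5% of all genes were lower without overlap.

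Of 19 regulators of imprints, 16 were tested, 8 above 0 and 8 below, and 0 were called with all libraries. Limma called 7 higher and 2 lower without untreated replicate 3, where the shares over all genes were 33.9% and 30.3%, and the median log2 fold change was 0.06, against -0.09 without untreated replicates 1 and 2. Trim28, the corepressor that ZFP57 recruits, had 58.8, 59.3 and 58.5 FPKM after iRFA, against 64.4, 63.7 and 62.9 FPKM, lower without overlap by a log2 of -0.11 (SE 0.08, adjusted p = 0.336 from limma). Dnmt1, the maintenance DNA methyltransferase, had 29.7, 33.2 and 27.5 FPKM after iRFA, against 13.8, 14.8 and 31.1 FPKM, and its log2 fold change was 0.67 with all libraries, 1.02 (SE 0.09, adjusted p = 0.000299 from limma) without untreated replicate 3 and -0.05 (SE 0.12) without untreated replicates 1 and 2. Ctcf, which insulates Igf2 from its enhancers on the maternal copy, had 25.0, 26.2 and 26.8 FPKM after iRFA, against 17.9, 17.96 and 29.9 FPKM, and it too was called higher without untreated replicate 3, at 0.51 (SE 0.06). Ehmt2, a histone H3 methyltransferase, had 36.3, 40.7 and 39.0 FPKM after iRFA, against 38.7, 38.7 and 41.5 FPKM. Zfp445, Dnmt3a, Tet2 and Tet3 were, like Trim28, lower without overlap, and Kdm1b, a histone demethylase needed for maternal imprints in oocytes, was higher without overlap, at 11.3 to 11.7 FPKM against 5.05 to 9.70 FPKM. Over all genes 10.5% were lower and 11.4% higher without overlap. The 3 untreated libraries lay close together for Trim28.

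Among 17 genes of the IGF axis, 13 were tested, 2 above 0 and 11 below, with a median log2 fold change of -1.25 with all libraries, -1.83 without untreated replicate 3 and 0.03 without untreated replicates 1 and 2. Igfbp7, an IGF-binding protein of vessels and stroma, had 43.5, 29.9 and 46.0 FPKM after iRFA, against 343, 359 and 53.5 FPKM. Igfbp3, the main circulating carrier of IGFs, had 56.8, 45.7 and 54.8 FPKM after iRFA, against 209, 169 and 76.5 FPKM. Igfbp6, which prefers IGF2, had 24.9, 18.99 and 33.7 FPKM after iRFA, against 174, 143 and 23.8 FPKM, and Igfbp4 had 24.2, 16.5 and 24.4 FPKM, against 71.5, 45.5 and 16.7 FPKM. Igfbp3, Igfbp7 and the receptor Igf1r did not overlap and were lower after iRFA, and Igf2bp2, an RNA-binding protein of Igf2 mRNA, did not overlap and was higher, at 13.7 to 16.4 FPKM against 3.87 to 12.4 FPKM, where 10.5% of all genes were lower and 11.4% higher without overlap. None of the 13 passed the threshold with all 6 libraries. Without untreated replicate 3, limma called 2 higher and 10 lower, where the shares over all genes were 33.9% and 30.3%. Pappa, among the 10, averaged 0.054 FPKM after iRFA and 2.00 FPKM without treatment. It passed the filter through the untreated libraries alone, which favored its lower sign.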

How the data were processed

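Groups were taken from the titles of the samples, 3 iRFA and 3 untreated libraries. Per the labels, the authors used FastQC, HISAT2 with genome build GRCm38, and StringTie, whose versions are not given in the sources used here. The deposited values are FPKM for each Ensembl gene. FPKM hold no counts, so the depth of a library is unknown and precision was taken from the spread between libraries. From these values log2(FPKM + 1) was fitted in R 4.3.3 by limma 3.58.1 with a variance trend and without covariates, and tested on both sides, over the 15560 genes averaging 0.5 FPKM or more, with Benjamini-Hochberg adjustment at 0.05. The fit was tested on simulated data with independent spread in each gene. Those data hold no library set apart across genes as untreated replicate 3 is, so that case was not tested. Names and positions are from GENCODE release 21, which names 32017 of the 32110 identifiers, and sequences from RefSeq on GRCm38.p6. Python 3.11.15, pandas 2.3.3, numpy 2.4.6 and matplotlib 3.10.9 were used.

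The imprinted genes, the further lists (42 other imprinted genes, 19 regulators of imprints, 17 genes of the IGF axis) and the cell type markers were chosen with earlier results of these data known. All imprinted genes are named, those averaging at least 1 FPKM with each library's value, and up to 4 members of highest mean FPKM of the other lists. Other genes named, among them those singled out because their groups did not overlap, were chosen after their values were seen. Alternatives were a pseudocount of 0.1, no filter, a mean of at least 1 FPKM, equal sums, median-of-ratios scaling, quantile normalization, no variance trend, the replicate number as a block, and leaving out each library or untreated replicates 1 and 2 together. Markers of skeletal muscle fiber, myogenic progenitors, keratinocytes, adipocytes and endothelium are given with the closing observations.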

Additional observations from a re-analysis of the deposited data

How the results depend on the processing

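With all libraries 0 genes were called, also under every pseudocount, filter and scaling tried. Leaving out 1 library gave 0 to 9980 calls over all genes, 0 to 19 among imprinted genes, 2 to 8 imprinted genes higher and 3 to 14 lower without overlap, and medians of -0.45 to -0.19. The upper ends, 9980, 19, 8 and 14, are those without untreated replicate 3, and without iRFA replicate 3 there were 5 lower without overlap. Without untreated replicates 1 and 2 there were 1 call in all, 5 imprinted genes higher and 5 lower without overlap and a median of 0.026. Equal sums left 1 imprinted gene higher without overlap, and no filter gave 6 lower of 33 and a median of -0.095. Deviations from the group means correlated at -0.0944, -0.105 and -0.23 between same-numbered samples. Those of iRFA replicate 3 correlated at 0.235 and 0.19 with untreated replicates 1 and 2. With untreated replicate 3 set apart from its group, these values cannot tell whether the numbers pair samples. The replicate block gave 0 calls and a median of -0.28, which a block cannot change with all 6 libraries in the fit.

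Over 15 alternatives 8 of the 24 imprinted genes kept the sign of their log2 fold change and 16 did not. An estimate cannot change with no filter, a mean of at least 1 FPKM, no variance trend or the replicate block. A sign could therefore turn only under the remaining alternatives. Without untreated replicates 1 and 2 the sign turned in 15, to 0.060 for Igf2r, 0.059 for Airn, 0.061 for Peg3, 0.035 for Sgce, -0.34 for Mest, 0.017 for Copg2, 0.087 for Plagl1, 0.099 for Cdkn1c, -0.035 for Kcnq1, 0.28 for Tssc4, -0.022 for Grb10, 0.17 for Ndn, 0.048 for Ube3a, -0.18 for Gnas and 0.0033 for Zrsr1. Most of these values lay within 1 SE of 0, such as Igf2r (SE 0.10) and Zrsr1 (SE 0.07), and show a lost difference rather than a reversed one. Gnas (SE 0.06), Mest (SE 0.30) and Cdkn1c (SE 0.07) lay further out. Quantile normalization turned Tssc4 to 0.0043, Ube3a to 0.17 and Nnat to 0.20. Leaving out 1 library turned these genes near 0 as well, over ranges of -0.24 to 0.14 for Tssc4, -0.20 to 0.17 for Ube3a and -0.077 to 0.11 for Nnat. The cause was not tested.

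Depth is unknown without counts, genes under 0.5 FPKM were not tested, overlapping antisense genes cannot be told apart, and leaving out untreated replicate 3 moved more calls than any other alternative.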

Other observations

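Some imprinted genes outside the 35 were far lower in untreated replicates 1 and 2 than in the other 4 libraries, and they are named here because of their values. Asb4, a ubiquitin ligase adaptor expressed from the maternal copy near Peg10, had 12.98, 11.2 and 12.5 FPKM after iRFA, against 0.130, 0.130 and 12.7 FPKM in untreated replicates 1, 2 and 3. Sfmbt2, a Polycomb-related gene imprinted in the mouse placenta, had 6.49, 6.65 and 6.55 FPKM after iRFA, against 0.0312, 0.108 and 6.95 FPKM. Atp10a, a phospholipid flippase gene near Ube3a, had 17.4, 18.1 and 18.6 FPKM after iRFA, against 2.30, 2.62 and 17.8 FPKM. With all libraries their log2 fold changes were 2.35, 1.86 and 1.65 (adjusted p = 0.250 for each from limma), and without untreated replicates 1 and 2 they were -0.05, -0.07 and 0.01. The part of cell make-up in these values was not tested.

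The other marker lists, summed in FPKM, differed in how far they set untreated replicates 1 and 2 apart. Skeletal muscle fiber markers, 10 of 10 listed, summed to 35.6 to 61.6 after iRFA, against 191, 242 and 2.88 in untreated replicates 1, 2 and 3. Myogenic progenitor markers, 6 of 6, summed to 0.690 to 1.00 after iRFA, against 3.83, 3.43 and 0.104. Keratinocyte markers, 8 of 8, summed to 2.09 to 4.51 after iRFA, against 74.6, 291 and 2.95. In untreated replicate 1 most of this sum was Krt14, at 65.2 FPKM. Krt5 (0.875 FPKM) and Krt10 (1.48 FPKM) lay within the iRFA range in that library. Adipocyte markers, 6 of 6, summed to 2.30 to 10.8 after iRFA, against 10.3, 11.1 and 2.67, and endothelium markers, 5 of 5, to 28.5 to 38.3 after iRFA, against 29.1, 30.2 and 35.1. The endothelial sum holds members of opposite direction, with Kdr at 3.43 to 3.66 FPKM after iRFA, against 7.53, 7.98 and 3.43 FPKM, and Cdh5 at 11.4 to 16.02 FPKM after iRFA, against 7.99, 8.85 and 15.7 FPKM. In the muscle fiber and myogenic progenitor lists untreated replicate 3 lay below every iRFA library.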
